A study of Mus musculus with 8 samples.

Results

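The comparison described here is the difference between 2 genotype effects in mouse liver macrophages: the effect of the dnTGFβRII transgene in monocyte-derived macrophages (MoM) minus its effect in Kupffer cells. It draws on all 8 of the 8 RNA-seq libraries and on all 15254 genes with enough counts to be tested, out of 24786 in the count files. Polyadenylated RNA was sequenced from 4 groups of 2 libraries, all on the C57BL/6 background: Kupffer cells of transgenic (TG) mice, Kupffer cells of wild-type (WT) mice, MoM of TG mice and MoM of WT mice. TG animals carry dnTGFβRII, a dominant-negative form of the type II TGF-β receptor, and serve as a cholangitis model; WT animals lack it. The sources used here do not state the age, sex or number of the animals, the sorting markers or the promoter of the transgene. In the established line of this name the transgene is directed to T cells, and whether these macrophages carry or express it was not tested.

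Kupffer cells are the resident macrophages of the liver sinusoids. They are seeded before birth, renew themselves locally, and are known for clearing particles, iron and lipoproteins from portal blood and for scavenger receptors such as Clec4f and Vsig4. Monocyte-derived macrophages arise from blood monocytes that enter through Ccr2, and accumulate in an inflamed liver. Interferon gamma from lymphocytes activates macrophages of either origin. It drives the guanylate-binding proteins and immunity-related GTPases of cell-autonomous defence and, through the transactivator Ciita, the MHC class II genes of antigen presentation.

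A positive interaction value means that the TG minus WT difference was larger in MoM, and a negative value that it was larger in Kupffer cells, in log2 units fitted with edgeR on counts scaled to library size. No gene passed edgeR's quasi-likelihood test for the interaction at an adjusted p below 0.05 (0 of 15254, 0%), and the smallest adjusted p was 0.626. At an unadjusted p below 0.05 there were 980 genes (6.42%), 406 positive (2.66%) and 574 negative (3.76%). The edgeR test also called 0 genes for TG against WT in Kupffer cells and 0 in MoM, with 906 (5.94%) and 987 (6.47%) at an unadjusted p below 0.05. Limma-trend called 0 genes in all 3 comparisons, and DESeq2 called 51 for the interaction (0.334%), 236 for Kupffer cells (1.68%) and 133 for MoM (0.889%). The values below are therefore descriptions of 8 libraries, with the standard error (SE) of the edgeR fit. The labels do not say whether the 2 libraries of a group came from separate animals, so the errors measure only the spread between these libraries, which may be technical.

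Library totals were 26190194 to 30308132 counts, so that depth was alike in all groups. Tgfbr2, the receptor gene that the transgene imitates, had 319 and 289 CPM (edgeR's count relative to the scaled library size) in TG Kupffer cells, 349 and 345 in WT Kupffer cells, 249 and 178 in TG MoM and 232 and 174 in WT MoM. Its interaction was 0.27 ± 0.36 (SE). Whether reads of the transgene count toward Tgfbr2 was not tested, so this level checks no label. Clec4f, a Kupffer cell lectin, had 2736 to 12314 CPM in the 4 Kupffer libraries and 33.3 to 125 CPM in 3 of the MoM libraries, but 3599 CPM in WT MoM replicate 1.

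Libraries that stand apart came into every value of the interaction. Over the 24 Kupffer identity genes, the mean log2(CPM + 0.5) was 7.89 in WT MoM replicate 1 against 4.18 to 4.65 in the other MoM libraries. Over 16 liver endothelial markers it was 9.43 in TG Kupffer replicate 2 against 4.41 in TG Kupffer replicate 1 and 4.46 and 5.48 in WT Kupffer cells, and 8.60 in WT MoM replicate 1. Kdr, an endothelial growth factor receptor, had 1107 CPM in TG Kupffer replicate 2 and 17.8 in replicate 1. Neutrophil markers were highest in TG MoM replicate 2 (7.20, against 2.00 to 3.51 in the other MoM libraries), and cholangiocyte markers in WT MoM replicate 2 (3.67). In bulk samples, fewer cells of a type and less RNA per cell cannot be told apart. List medians and the interactions of single genes are therefore also given without TG Kupffer replicate 2 and WT MoM replicate 1, called the reduced set, for most of the genes described. That set keeps 1 TG Kupffer library and 1 WT MoM library, and it still contains the neutrophil and cholangiocyte signals named above. Under edgeR it gave 0 interaction calls.

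**Figure D1:**
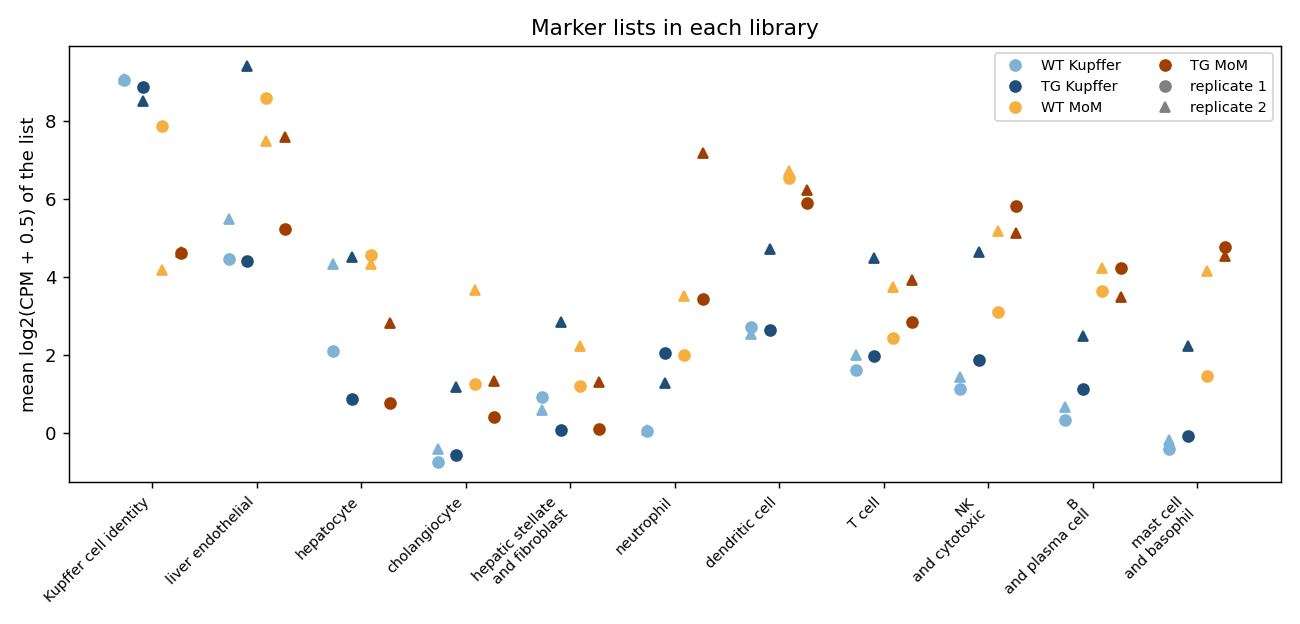
Mean log2(CPM + 0.5) of 11 marker lists (x axis) in each of the 8 libraries; color gives the group, circles are replicate 1 and triangles replicate 2. TG Kupffer replicate 2 (endothelial 9.43), WT MoM replicate 1 (Kupffer identity 7.89) and TG MoM replicate 2 (neutrophil 7.20) sit away from the other library of their group.

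With all 8 libraries, the effect of the transgene in Kupffer cells did not follow its effect in MoM across genes. In the reduced set the 2 effects were positively correlated. The 2 effects share no library. Their Pearson correlation over 15254 genes was -0.14 (Spearman -0.12), and over 15699 genes of the reduced set it was 0.35 (Spearman 0.25). Over the 10014 genes with at least 10 CPM in the highest group, Pearson's r went from -0.10 to 0.47. These correlations run across genes, which are not independent replicates. The median over all genes was 0.03 for the Kupffer effect, -0.04 for the MoM effect and -0.12 for the interaction, with 56.5% of genes negative (47.7% in the reduced set).

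**Figure D2:**
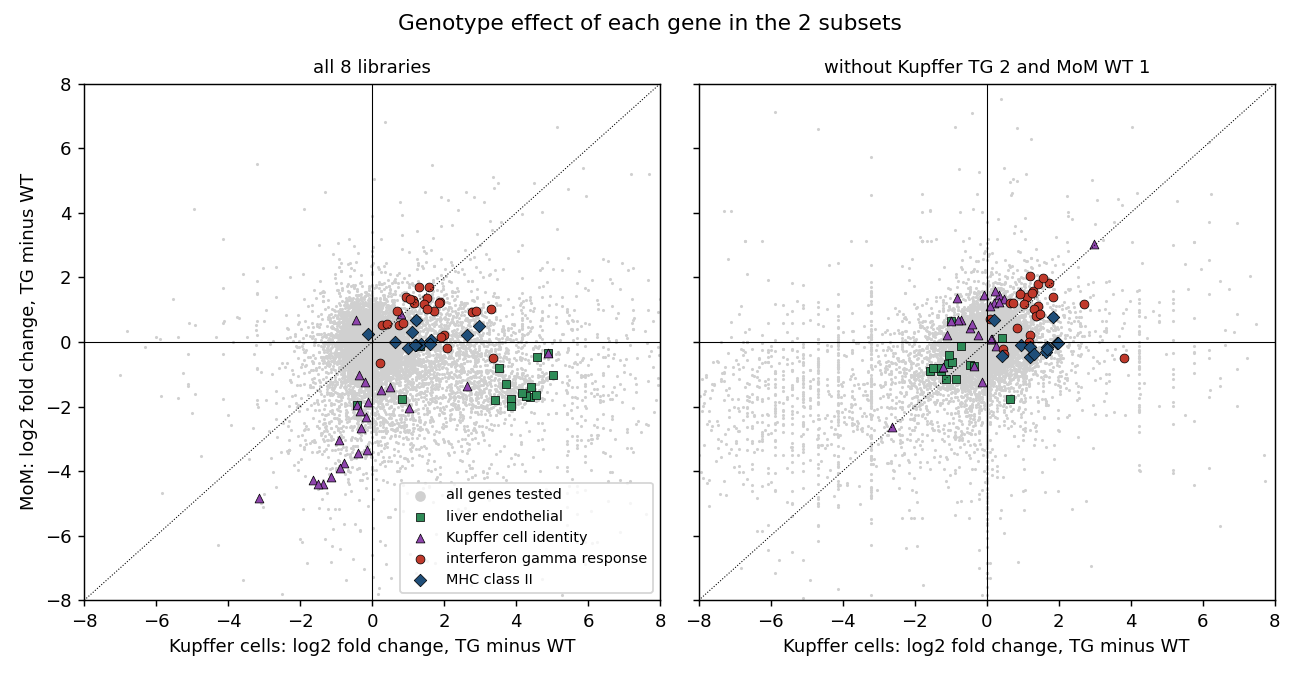
Each point is a gene, with its TG minus WT log2 fold change in Kupffer cells (x axis) and in MoM (y axis), for all 8 libraries (left) and the reduced set (right); the dotted line marks equal effects, and genes beyond 8 on either axis (36 on the left) lie outside the frame. MHC class II genes lie to the right at a MoM value near 0 and interferon gamma genes lie up and to the right in both panels, whereas endothelial and Kupffer identity genes change place between the panels.

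To sort genes by pattern, a gene was said to differ in a subset when its absolute log2 fold change was at least 1 and its 2 TG libraries did not overlap its 2 WT libraries. By this rule 994 genes (6.52%) stood higher in TG Kupffer cells and 375 (2.46%) lower, and 523 (3.43%) stood higher in TG MoM and 1679 (11%) lower. The higher sets shared 141 genes (0.924% of those tested), which is 14.2% of the Kupffer set and 27.0% of the MoM set. The lower sets shared 85 genes (0.557%), 22.7% of the Kupffer set and 5.06% of the MoM set. A further 122 genes (0.8%) stood higher in TG Kupffer cells and lower in TG MoM, and 19 genes (0.125%) the other way round. The 122 were 12.3% of the higher Kupffer set, beside 11% of all genes lower in TG MoM. They were 7.27% of the lower MoM set, beside 6.52% of all genes higher in TG Kupffer cells. The 19 were 5.07% of the lower Kupffer set and 3.63% of the higher MoM set, beside 3.43% and 2.46% of all genes. Genes that differed in a single subset, with an absolute log2 fold change under 0.5 in the other, numbered 469 for Kupffer cells (3.07%) and 643 for MoM (4.22%). The Kupffer-only genes were 348 higher (2.28%) and 121 lower in TG (0.793%), and the MoM-only genes 190 higher (1.25%) and 453 lower (2.97%). Of these 469 and 643 genes, 181 and 194 fell in the same class in the reduced set. In that set 88 of the 141 genes higher in both subsets and 62 of the 122 genes higher in TG Kupffer cells and lower in TG MoM kept their class. Of the 15699 genes of the reduced set, 1.1% stood higher in both subsets and 4.37% lower in both, 1.33% and 0.287% had opposite directions, 2.21% were Kupffer-only higher and 2.05% lower, and 2.08% were MoM-only higher and 4.21% lower.

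MHC class II genes formed a Kupffer-only group. Of 12 genes on the list, 9 stood higher in TG Kupffer cells by the rule above and 0 in TG MoM, and 8 of 12 fell in the Kupffer-only higher class, beside 2.28% of all genes: H2-Aa, H2-Ab1, H2-Eb1, H2-Eb2, H2-DMb2, H2-Oa, H2-Ob and Cd74. The list's median was 1.22 for the Kupffer effect, 0.03 for the MoM effect and -1.30 for the interaction, beside -0.12 over all genes. The interaction was negative for 11 of the 12, and 6 of the 12 had an unadjusted edgeR p below 0.05 in the negative direction, beside 56.5% and 3.76% of all genes. In the reduced set the median interaction was -1.69, with 11 of 12 negative, and over the fits that leave out each library it ranged from -1.52 to -0.93.

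H2-Aa (chr17:34282744-34287823 on mm10), the alpha chain of I-A, had 4643 and 4856 CPM in TG Kupffer cells, 1508 and 1556 in WT Kupffer cells, 5353 and 5918 in TG MoM and 3998 and 6816 in WT MoM. Its TG and WT libraries were apart in Kupffer cells and overlapped in MoM. The interaction was -1.57 ± 0.54 (SE), and -1.94 in the reduced set. H2-Eb1 (chr17:34305867-34316674), the beta chain of I-E, had 4633 and 2860 CPM in TG against 1189 and 1273 in WT Kupffer cells, and 5594 and 4018 in TG against 5102 and 4867 in WT MoM (interaction -1.66 ± 0.55, and -1.99 in the reduced set). H2-Ab1, the beta chain of I-A, behaved likewise, with 6118 and 4090 CPM against 1867 and 2087 in Kupffer cells and an interaction of -1.43 ± 0.54, and -1.83 in the reduced set. Cd74, the invariant chain that escorts class II molecules, had 13180 and 11738 CPM in TG against 5139 and 5778 in WT Kupffer cells, with an interaction of -1.29 ± 0.61, and -1.71 in the reduced set. WT Kupffer cells thus held these 4 genes below every MoM library, and TG Kupffer cells held them at 2860 CPM or more.

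Accessory genes of the same pathway were lower in level. H2-Oa, a chain of the H2-O modulator of peptide loading, had 4.23 and 12.8 CPM in TG against 1.29 and 1.42 in WT Kupffer cells, while MoM had 82.4 to 164 CPM (interaction -2.43 ± 0.79, and -1.91 in the reduced set). H2-DMb1, a chain of the peptide-exchange factor, had 568 and 432 CPM in TG against 249 and 258 in WT Kupffer cells (interaction -1.16 ± 0.40, and -1.68 in the reduced set). Ctss, the protease that trims the invariant chain, was the member with a positive interaction (0.36 ± 0.54, and 0.47 in the reduced set). Ciita, the transactivator of the group, had 303 and 105 CPM in TG against 76.4 and 98.7 in WT Kupffer cells, and 394 and 357 in TG against 249 and 218 in WT MoM. Its interaction of -0.53 ± 0.66 was -1.08 in the reduced set and 0.44 without TG Kupffer replicate 1.

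Markers of other cells that carry class II were measured beside this group. Dendritic cell markers had a mean log2(CPM + 0.5) of 2.66 in TG Kupffer replicate 1, level with 2.72 and 2.54 in WT Kupffer cells, and 4.71 in TG Kupffer replicate 2. H2-Ab1, H2-Eb1, H2-DMb1, Cd74 and Ciita had more CPM in replicate 1 than in replicate 2. H2-Aa, H2-Eb2, H2-Oa and H2-Ob had fewer, with 1.21 and 3.69 CPM for H2-Eb2 and 7.79 and 20.5 for H2-Ob. Monocyte markers stood at 4.26 and 4.45 in TG against 3.42 and 3.21 in WT Kupffer cells, and B and plasma cell markers at 1.13 and 2.49 against 0.33 and 0.67. MoM had 5.91 to 8.54 for the monocyte list. The part of these cells in the class II values was not tested.

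The promoters of H2-Aa and H2-Eb1 are shown because class II genes are known to share an upstream module, with a Y box as one element, that Ciita acts through. Both windows run from 250 bases before to 50 after the RefSeq start on GRCm38.p6, H2-Aa at chr17:34287774-34288073 on the minus strand and H2-Eb1 at chr17:34305617-34305916 on the plus strand, and capitals mark matches to the Y box letters GATTGG on either strand.
H2-Aa: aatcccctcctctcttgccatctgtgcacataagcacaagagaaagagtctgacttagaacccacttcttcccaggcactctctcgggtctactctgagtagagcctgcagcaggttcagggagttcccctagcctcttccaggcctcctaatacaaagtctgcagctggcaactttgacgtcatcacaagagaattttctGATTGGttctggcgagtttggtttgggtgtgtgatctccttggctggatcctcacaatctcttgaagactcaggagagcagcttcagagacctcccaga
H2-Eb1: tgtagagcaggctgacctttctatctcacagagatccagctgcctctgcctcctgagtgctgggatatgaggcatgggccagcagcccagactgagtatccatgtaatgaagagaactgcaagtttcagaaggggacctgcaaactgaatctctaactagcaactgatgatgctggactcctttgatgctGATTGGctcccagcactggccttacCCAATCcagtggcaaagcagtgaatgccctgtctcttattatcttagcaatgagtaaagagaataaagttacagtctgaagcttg
Of the 12 class II genes, 9 had a promoter in the RefSeq table, and 8 of these held GATTGG on either strand, beside 16.1% of all 32851 promoters of that length. A match is a description of the letters and not a measured site.

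Interferon gamma genes stood higher in TG in both subsets. All 26 genes of the list had a positive Kupffer effect and 23 of 26 a positive MoM effect, with medians of 1.49 and 0.96, beside 53.1% and 46.7% positive over all genes. The median interaction was -0.39 (17 of 26 negative), and -0.29 in the reduced set (14 of 26 negative). By the rule of at least 1 log2 unit and no overlap, 10 of the 26 were higher in both subsets, beside 0.924% of all genes (Gbp2, Gbp4, Gbp5, Gbp6, Gbp7, Igtp, Tgtp1, Tgtp2, Cd274 and Batf2). A further 3 were higher in Kupffer cells with a flat MoM value, beside 2.28% (Socs1, Irgm1 and Cxcl10), and 0 were MoM-only. In the reduced set the medians were 1.27 and 1.14, and without TG MoM replicate 2 the MoM median was 0.63.

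T cell and NK cell markers, which belong to cells known to make interferon gamma, stood high in some of the same libraries. The mean log2(CPM + 0.5) of the T cell list was 1.99 and 4.48 in TG against 1.62 and 2.00 in WT Kupffer cells, and 2.84 and 3.93 against 2.44 and 3.74 in MoM. That of the NK and cytotoxic list was 1.86 and 4.64 against 1.14 and 1.43 in Kupffer cells, and 5.83 and 5.14 against 3.11 and 5.196 in MoM. For the interferon gamma list it was 7.38 and 7.74 against 6.31 and 6.16 in Kupffer cells, and 6.35 and 7.09 against 6.10 and 5.83 in MoM, so TG Kupffer replicate 2 was the highest Kupffer library for all 3 lists. The part of these cells in the interferon values was not tested.

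The GTPases made up 8 of these 10: 14 of 14 on the list were positive in each subset, with medians of 1.49 in Kupffer cells and 1.11 in MoM, and 8 of 14 were higher in both, beside 0.924% of all genes. Gbp5 (chr3:142493978-142522344), a guanylate-binding protein that promotes inflammasome assembly, had 211 and 179.3 CPM in TG against 71.0 and 61.0 in WT Kupffer cells, and 82.2 and 133 in TG against 36.1 and 30.02 in WT MoM. All 4 TG libraries lay above the WT libraries of their subset, and the 2 effects, 1.56 ± 0.28 and 1.70 ± 0.28, differed by 0.14 ± 0.39. Gbp4, of the same family, had 437 and 488 CPM against 126 and 126 in Kupffer cells and 146 and 252 against 96.6 and 73.6 in MoM. Its effect was larger in Kupffer cells (1.88) than in MoM (1.22), by less than 2 SE of the interaction (-0.65 ± 0.43). Tgtp2 (chr11:49057194-49064206), a GTPase that disrupts pathogen vacuoles, had 265 and 373 CPM against 129 and 91.0 in Kupffer cells and 145 and 189 against 83.1 and 80.6 in MoM. Tgtp1 and Tgtp2 are near-identical copies, so their split of reads is uncertain.

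The promoters of Gbp5 and Tgtp2 are shown as examples of the group higher in both subsets. The windows are chr3:142496684-142496983 on the plus strand and chr11:49064163-49064462 on the minus strand of GRCm38.p6, from RefSeq, and capitals mark matches on either strand to the core of the interferon-stimulated response element (ISRE), GAAANNGAA, and to the gamma-activated site (GAS), TTCNNNGAA.
Gbp5: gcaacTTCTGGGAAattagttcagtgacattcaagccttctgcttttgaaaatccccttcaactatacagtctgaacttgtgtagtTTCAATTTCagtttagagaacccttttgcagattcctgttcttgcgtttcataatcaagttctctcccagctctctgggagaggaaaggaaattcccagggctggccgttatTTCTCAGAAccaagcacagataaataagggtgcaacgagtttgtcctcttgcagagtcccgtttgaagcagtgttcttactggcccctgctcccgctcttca
Tgtp2: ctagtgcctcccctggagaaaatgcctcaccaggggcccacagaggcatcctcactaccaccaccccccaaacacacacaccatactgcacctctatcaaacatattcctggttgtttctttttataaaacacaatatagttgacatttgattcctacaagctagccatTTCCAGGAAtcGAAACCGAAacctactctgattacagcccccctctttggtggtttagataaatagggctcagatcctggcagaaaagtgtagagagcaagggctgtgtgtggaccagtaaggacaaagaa
Of the 14 GTPase genes, 9 had a promoter in the table: 9 held the ISRE letters (8.56% of all promoters) and 6 the GAS letters (8.3%), while 1 held the Y box letters. Of the 9 class II promoters, 1 held the ISRE and 1 the GAS letters. Copies within the GTPase family share sequence, so these 9 are not separate observations.

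Several interferon gamma genes had a larger TG difference in Kupffer cells. Serpina3g, a protease inhibitor of activated myeloid cells, had 1035 and 1408 CPM in TG against 170 and 159 in WT Kupffer cells, and 206 and 508 in TG against 211 and 155 in WT MoM, with an interaction of -1.93 ± 0.64 (-1.53 in the reduced set). Irgm1, a GTPase that controls autophagy, had 188 and 455 CPM against 88.8 and 82.4 in Kupffer cells and 79.8 and 197 against 116 and 135 in MoM (interaction -1.77 ± 0.76, and -1.19 in the reduced set). Socs1, the feedback inhibitor of the pathway, had 25.7 and 66.1 CPM against 16.3 and 6.79 in Kupffer cells, and 27.5 and 28.2 against 23.8 and 23.8 in MoM (interaction -1.77 ± 0.77, and -0.99 in the reduced set). The chemokines Cxcl9 and Cxcl10, which attract T cells through Cxcr3, had an interaction of -2.27 each, with SEs of 1.51 and 1.54. Both were highest in TG Kupffer replicate 2 (858 and 1000.2 CPM, against 125 and 189 in replicate 1), and in the reduced set their interactions were -0.55 and -0.84.

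Type I interferon genes did not share the pattern of the interferon gamma list. The 25 genes had medians of -0.14 in Kupffer cells and -0.19 in MoM, with 12 and 10 positive. The antiviral sensors Oas2 and Oas3 stood lower in TG Kupffer cells: Oas3 had 107 and 85.8 CPM in TG against 204 and 279 in WT Kupffer cells, and 81.2 and 101 against 106 and 50.2 in MoM (interaction 1.54 ± 0.55, and 1.96 in the reduced set). For Oas2 the interaction was 1.30 ± 0.85, and 2.41 in the reduced set. The list's median interaction was -0.15 with all libraries and 0.59 in the reduced set. It was 0.26 without TG Kupffer replicate 2, 0.19 without TG MoM replicate 1 and 0.18 without WT MoM replicate 1. Without any other single library it stayed negative, so its sign depends on the libraries used.

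**Figure D3:**
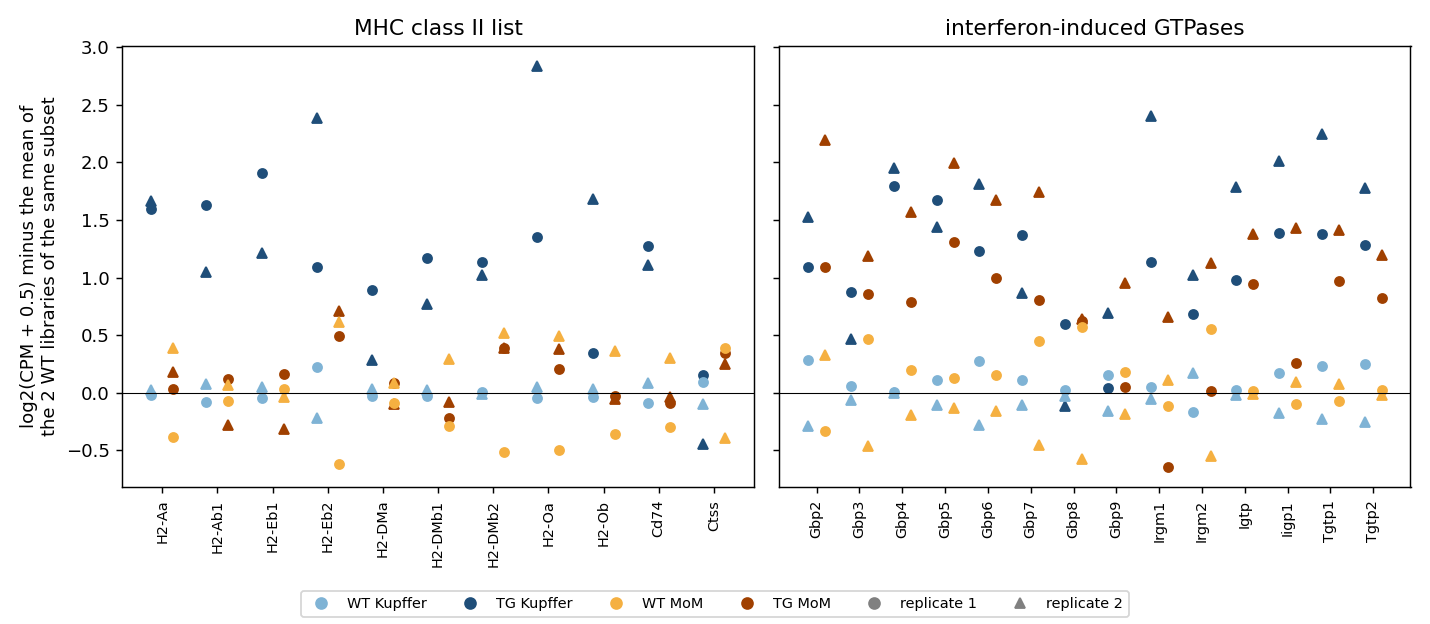
Level of each MHC class II gene other than Ciita (left) and each interferon-induced GTPase (right) in every library, as log2(CPM + 0.5) minus the mean of the 2 WT libraries of the same subset. TG Kupffer libraries (dark blue) stand above 0 for most class II genes while TG MoM (brown) stay with their WT libraries; for Gbp4, Gbp5 and Igtp both TG groups stand above 0.

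Pattern recognition receptors leaned to MoM. Of 17 genes, 14 had a positive MoM effect (median 0.72) and 10 a positive Kupffer effect (median 0.03), and the interaction was positive for 14 of 17, beside 43.5% of all genes, with a median of 0.89 (0.41 in the reduced set, where 12 of 17 were positive). It ranged from 0.50 (without TG Kupffer replicate 2) to 1.16 when each library was left out, and was 0.55 without TG MoM replicate 2. Nod2, the sensor of muramyl dipeptide, had 142 and 84.2 CPM in TG against 26 and 41.02 in WT MoM, and 20.5 and 11.3 in TG against 27.9 and 16.8 in WT Kupffer cells. Its libraries were apart in MoM and overlapped in Kupffer cells, with an interaction of 2.24 ± 0.64, and 1.53 in the reduced set. Tlr13, a sensor of bacterial ribosomal RNA, had 168 and 246 CPM against 73.5 and 106 in MoM and 116 and 121 against 118 and 138 in Kupffer cells (interaction 1.32 ± 0.39, and 1.03 in the reduced set). Together with the flagellin receptor Tlr5, at 4.44 CPM or less, these were the 3 MoM-only genes of the list, all higher in TG, beside 1.25% of all genes. Tlr3, the sensor of double-stranded RNA, went the other way with an interaction of -2.32 ± 0.82 (-1.52 in the reduced set): it had 8.32 and 21.7 CPM in TG against 45.1 and 43.4 in WT MoM.

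Other immune regulators with a positive interaction included Nlrc5, Il27, Nlrp3 and Cd86. Nlrc5, the transactivator of MHC class I, had 298 and 306 CPM in TG against 129 and 135 in WT MoM, and 174 and 152 against 122 and 152 in Kupffer cells (interaction 0.94 ± 0.28, and 0.74 in the reduced set). Ciita, the class II transactivator, also had both TG libraries above WT in MoM, with the values given above. By the rule for a difference, 0 of the 12 class II genes, Ciita included, stood higher in TG MoM. The 16 class I processing genes had a positive effect in 14 cases in each subset, with medians of 0.24 in Kupffer cells and 0.42 in MoM, and a median interaction of 0.16 (-0.03 in the reduced set). Il27, a cytokine of activated myeloid cells, had 8.43 and 10.3 CPM in TG against 3.67 and 2.25 in WT MoM (interaction 1.48 ± 0.64, and 1.53 in the reduced set), with overlapping libraries in Kupffer cells. Nlrp3, the inflammasome sensor, differed mainly in Kupffer cells, with 255 and 265 CPM in TG against 407 and 462 in WT, and had 411 and 609 against 440 and 413 in MoM (interaction 1.00 ± 0.36, and 1.00 in the reduced set). Cd86, a costimulatory ligand, stood at 226 and 202 CPM in TG against 328 and 289.7 in WT Kupffer cells, and at 171 and 208 against 149 and 150.3 in MoM (interaction 0.87 ± 0.28, and 0.71 in the reduced set). The checkpoint ligand Pdcd1lg2 was higher in TG in both subsets, more so in Kupffer cells: 13.1 and 12.4 CPM against 1.58 and 2.09, and in MoM 26.7 and 22.5 against 7.94 and 12.2 (interaction -1.499 ± 0.44, and -1.88 in the reduced set).

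**Figure D4:**
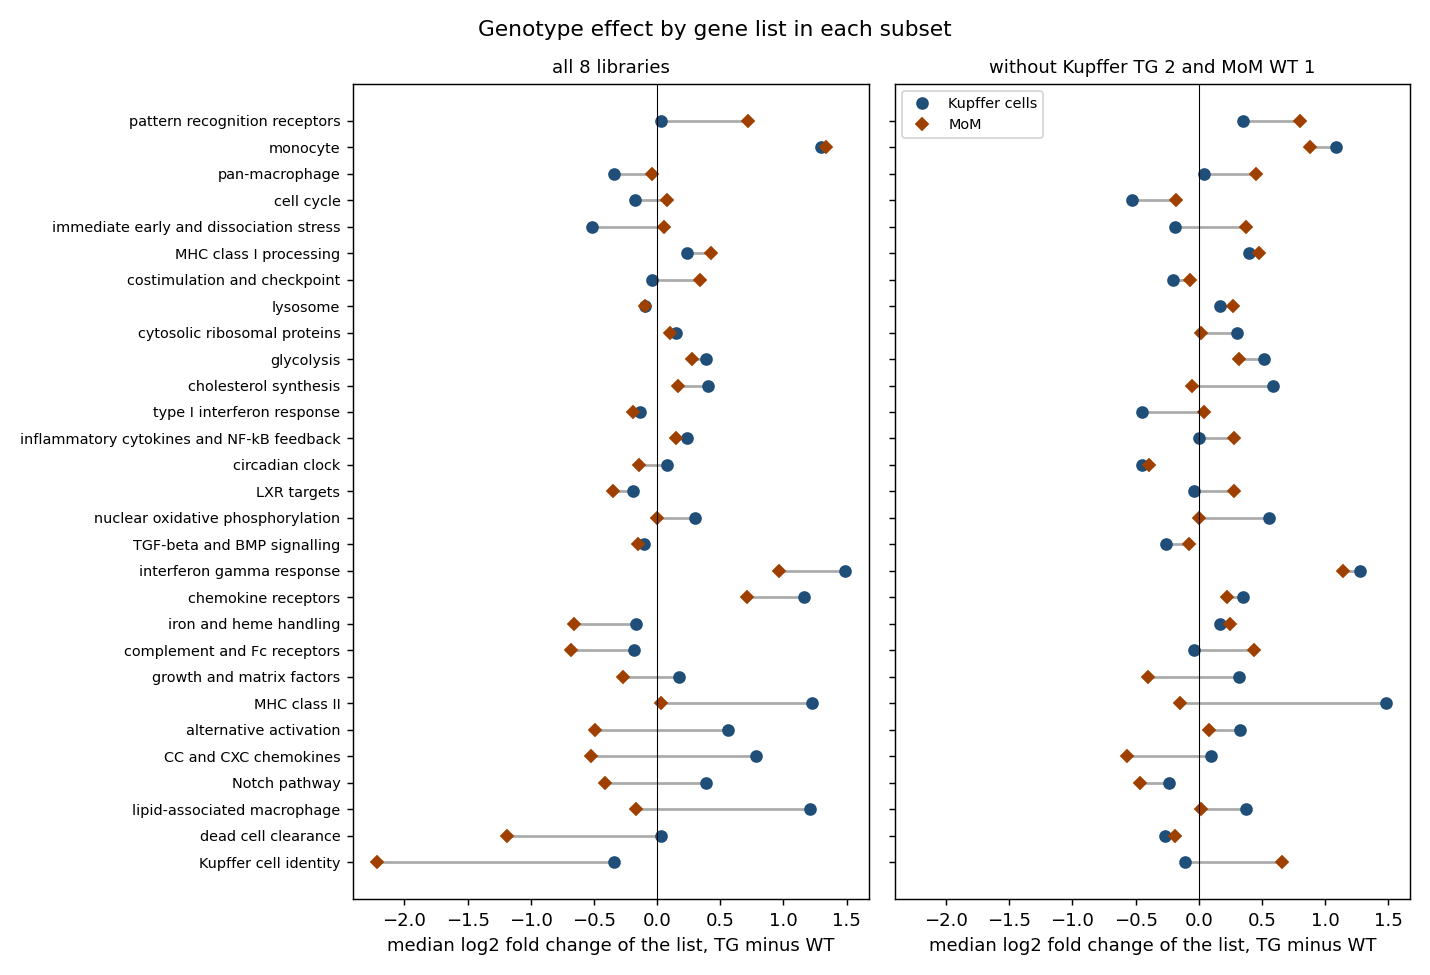
Median TG minus WT log2 fold change of each function, macrophage identity and stress list (y axis) in Kupffer cells (circles) and MoM (diamonds). The stress list holds immediate early and dissociation genes. The left panel has all 8 libraries and the right panel the reduced set. Lists are ordered by the median interaction with all libraries. MHC class II (1.22 and 0.03) keeps its separation in both panels and interferon gamma genes (1.49 and 0.96) stand to the right in both, while Kupffer identity moves from the left to the right side for MoM.

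Tissue repair and matrix genes split by subset. Of 22 growth and matrix factors, 17 had a negative interaction (median -1.04, and -0.80 in the reduced set with 17 of 22 negative). Kupffer-only higher genes were Mmp14, Adam8, Vegfa and Areg, and MoM-only lower genes were Igf1, Pdgfa, Pdgfc and Hbegf. These were 4 of 22 each, beside 2.28% and 2.97% of all genes. In the reduced set the list held 1 and 2 such genes, beside 2.21% and 4.21%. Mmp14, a membrane-bound collagenase, had 276 and 201 CPM in TG against 61.5 and 40.6 in WT Kupffer cells, and 103 and 125 against 129.8 and 65.1 in MoM (interaction -1.99 ± 0.56, and -1.69 in the reduced set). Pdgfc, a fibroblast mitogen, had 2.48 and 1.74 CPM in TG against 17.97 and 5.89 in WT MoM, and 99.0 and 46.7 against 75.4 and 67.9 in Kupffer cells (interaction -2.52 ± 0.83, and -2.01 in the reduced set). Igf1 had 7.53 and 7.29 CPM in TG MoM against 82.5 and 10.5 in WT MoM, where the higher value belongs to the library with Kupffer cell markers. Its interaction was -2.54 ± 1.21 with all libraries and -0.79 in the reduced set. Areg stayed below 1 CPM in the Kupffer libraries, and Vegfa changed sign of its interaction between left-out libraries.

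Chemokines had a negative interaction in 20 of 22 cases (median -1.52), and in 17 of 22 in the reduced set (-0.87). Cxcl13, the B cell attractant, had 1397 and 516 CPM in TG against 162 and 153 in WT Kupffer cells, and 30.6 and 10.7 against 79.9 and 13.03 in MoM (interaction -3.77 ± 1.34, and -2.54 in the reduced set). Ccl7, a monocyte attractant, stood lower in TG MoM, at 1.05 and 4.72 CPM against 23.5 and 13.6 (interaction -3.57 ± 1.26, and -2.41 in the reduced set). Ccl22, made by dendritic cells, had 35.6 CPM in TG Kupffer replicate 2 and 1.66 in replicate 1, so its interaction of -4.10 ± 1.93 came down to -1.35 in the reduced set. Among 14 lipid-associated macrophage genes, Cd9, Fabp5 and Cd63 were Kupffer-only higher, 3 of 14 beside 2.28% of all genes. In the reduced set 0 of 14 were, beside 2.21%. Fabp5 had 5.37 and 42.0 CPM in TG against 4.13 and 2.20 in WT Kupffer cells. For Cd9, a tetraspanin, TG Kupffer cells had 22.3 and 75.1 CPM against 10.7 and 7.09. The list's median interaction of -1.61 was -0.23 in the reduced set.

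Genes of the TGF-β pathway itself showed no common direction: of 24 genes, 14 had a negative interaction (median -0.35), and 9 of 24 in the reduced set (0.18). Tgfbr1, the signalling receptor that pairs with Tgfbr2, had 87.6 and 69.5 CPM in TG against 177 and 160.1 in WT Kupffer cells, and 158 and 83.2 against 100.02 and 79.4 in MoM (interaction 1.53 ± 0.47, and 1.49 in the reduced set). With Tgfb3 it made up the 2 Kupffer-only lower genes of the list, beside 0.793% of all genes. The target gene Tgfbi was the MoM-only higher gene, beside 1.25% of all genes, at 560 and 794 CPM against 303 and 323. The inhibitor Smad6 had 89.98 CPM in WT MoM replicate 1 and 12.2 to 21.3 in the other MoM libraries, and its interaction of -2.31 ± 0.92 was -0.98 in the reduced set.

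Metabolic and clock genes were measured as further lists. Nuclear genes of oxidative phosphorylation had a negative interaction in 21 of 22 cases, with a median of -0.34 (-0.56 in the reduced set), a Kupffer median of 0.30 and a MoM median near 0. Without TG Kupffer replicate 1 the median interaction was -0.06 and the Kupffer median -0.00089, so both rest on that library. Ndufa4, for example, had 62.0 and 58.8 CPM in TG against 53.2 and 43.0 in WT Kupffer cells, and an interaction of -0.49 ± 0.28, and -0.70 in the reduced set. Of 18 glycolysis genes, 15 had a positive Kupffer effect and 14 a positive MoM effect (medians 0.39 and 0.28), beside 53.1% and 46.7% of all genes, and the Kupffer median was 0.11 without TG Kupffer replicate 1. Among clock repressors, Per1 had 173 and 184 CPM in TG against 260.4 and 281 in WT Kupffer cells, and 678 and 657 against 413 and 491 in MoM. Its TG libraries lay below the WT libraries in Kupffer cells and above them in MoM, with an interaction of 1.16 ± 0.29 (1.02 in the reduced set), which DESeq2 called (adjusted p = 0.049). Cry1 had 11.6 and 10.3 CPM against 21.2 and 19.4 in Kupffer cells and 27.1 and 21.6 against 17.9 and 17.3 in MoM (interaction 1.36 ± 0.31, and 1.24 in the reduced set). Nr1d1, a further clock repressor, had an interaction of the other sign (-2.77, and -2.50 in the reduced set). The 16 clock genes together had a median interaction of -0.28, and 0.23 in the reduced set. With each library left out that median ranged from -0.23 to 0.21. The labels do not state the time of day of collection.

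The 20 genes with the smallest interaction p, 10 in each direction among genes of at least 10 CPM, are given as values. All 20 kept their sign in the reduced set and in each fit that left out 1 library, and DESeq2 called all 20; since they were picked by that p, these counts only describe them. Ugt1a2, Ugt1a5, Ugt1a6a, Ugt1a6b, Ugt1a7c and Ugt1a10 overlap on chromosome 1 and share their last exons, so these 6 genes are 1 locus and not separate measurements. Ugt1a2, of this glucuronidation locus (chr1:88200601-88218997), had 47.4 and 51.2 CPM in TG against 19.3 and 23.6 in WT MoM, and 5.78 and 5.86 against 7.69 and 8.85 in Kupffer cells. TG stood above WT in MoM and below it in Kupffer cells, with an interaction of 1.71 ± 0.30, and 1.51 in the reduced set.

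On the positive side were 4 further genes. Smpdl3b (chr4:132732966-132757252), a membrane-anchored phosphodiesterase that restrains Toll-like receptor signalling, had 213 and 106 CPM in TG against 20.5 and 27.4 in WT MoM, and 9.22 and 5.09 in TG against 15.8 and 14.8 in WT Kupffer cells. The transgenic libraries lay above WT in MoM and below WT in Kupffer cells, with effects of 2.73 ± 0.44 and -1.10 ± 0.43 and an interaction of 3.83 ± 0.61, and 3.21 in the reduced set. Pag1, an adaptor that recruits the kinase Csk to the membrane, had 305 and 195 CPM against 75.3 and 88.0 in MoM and 61.7 and 57.2 against 84.6 and 129.8 in Kupffer cells (interaction 2.47 ± 0.44, and 2.24 in the reduced set). Vnn3, a pantetheinase of the vanin family, had 14.5 and 10.1 CPM against 2.47 and 2.83 in MoM (interaction 3.09 ± 0.57, and 2.96 in the reduced set). Kntc1, a kinetochore protein of the mitotic checkpoint, differed mainly in Kupffer cells, with 4.23 and 4.31 CPM in TG against 11.6 and 13.3 in WT (interaction 2.09 ± 0.34, and 2.05 in the reduced set). Fbxl5 (chr5:43744615-43821638), the iron-sensing subunit of a ubiquitin ligase, was among the MoM-only genes: 102 and 109 CPM against 49.9 and 45.8 in MoM, and 50.5 and 41.2 against 57.3 and 51.6 in Kupffer cells (interaction 1.39 ± 0.26, and 1.24 in the reduced set).

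On the negative side several genes encode membrane proteins that stood higher in TG Kupffer cells. Anpep (chr7:79821803-79861059), the aminopeptidase known as CD13, had 41.4 and 58.6 CPM in TG against 7.54 and 6.65 in WT Kupffer cells, and 99.5 and 132 against 105 and 124 in MoM. Its Kupffer effect was 2.82 ± 0.27, its MoM effect 0.02 ± 0.25 and its interaction -2.80 ± 0.36, and -2.71 in the reduced set. Hvcn1, the voltage-gated proton channel, had 34.7 and 48.6 CPM against 11.2 and 9.93 in Kupffer cells and 54.3 and 71.7 against 65.3 and 75.6 in MoM (interaction -2.14 ± 0.36, and -2.05 in the reduced set). For both genes every MoM library lay above the TG Kupffer libraries, and these above the WT Kupffer libraries.

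Procr and Lpar1 differed from that order, since TG Kupffer cells held the highest level of all groups. Procr, the protein C receptor, had 143 and 103 CPM in TG against 25.2 and 22.4 in WT Kupffer cells, and 19.0 and 30.4 against 21.7 and 21.4 in MoM (interaction -2.18 ± 0.41, and -2.46 in the reduced set). Lpar1, a receptor for lysophosphatidic acid, had 19.4 and 17.0 CPM against 3.05 and 3.66 in Kupffer cells and 1.74 to 2.18 CPM in all MoM libraries (interaction -2.26 ± 0.43, and -2.28 in the reduced set). Rab30, a Golgi GTPase, was instead highest in MoM, with 12.5 and 11.6 CPM in TG against 15.8 and 15.9 in WT. In Kupffer cells it was low, with 1.51 and 3.10 CPM in TG against 0.215 and 0.299 in WT (interaction -3.54 ± 0.61, and -3.01 in the reduced set).

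Sort1, Il12rb1 and Gpnmb stood higher in TG in both subsets, with the larger difference in Kupffer cells. Sort1, the sorting receptor sortilin, had 68.2 and 41.9 CPM in TG against 3.59 and 2.05 in WT Kupffer cells, and 129 and 125 against 38.9 and 64.2 in MoM (interaction -2.98 ± 0.56, and -3.66 in the reduced set). Il12rb1, the receptor chain shared by interleukins 12 and 23, had 20.4 and 15.04 CPM against 1.44 and 1.61 in Kupffer cells and 9.79 and 10.8 against 3.95 and 5.41 in MoM (interaction -2.40 ± 0.45, and -2.88 in the reduced set). Gpnmb, a glycoprotein of lipid-laden macrophages, had 17.5 and 19.6 CPM against 3.45 and 2.69 in Kupffer cells and 14.1 and 15.2 against 8.99 and 8.40 in MoM (interaction -1.84 ± 0.36, and -1.77 in the reduced set). The MoM effect of Gpnmb, 0.76, was below the size set for a class.

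**Figure D5:**
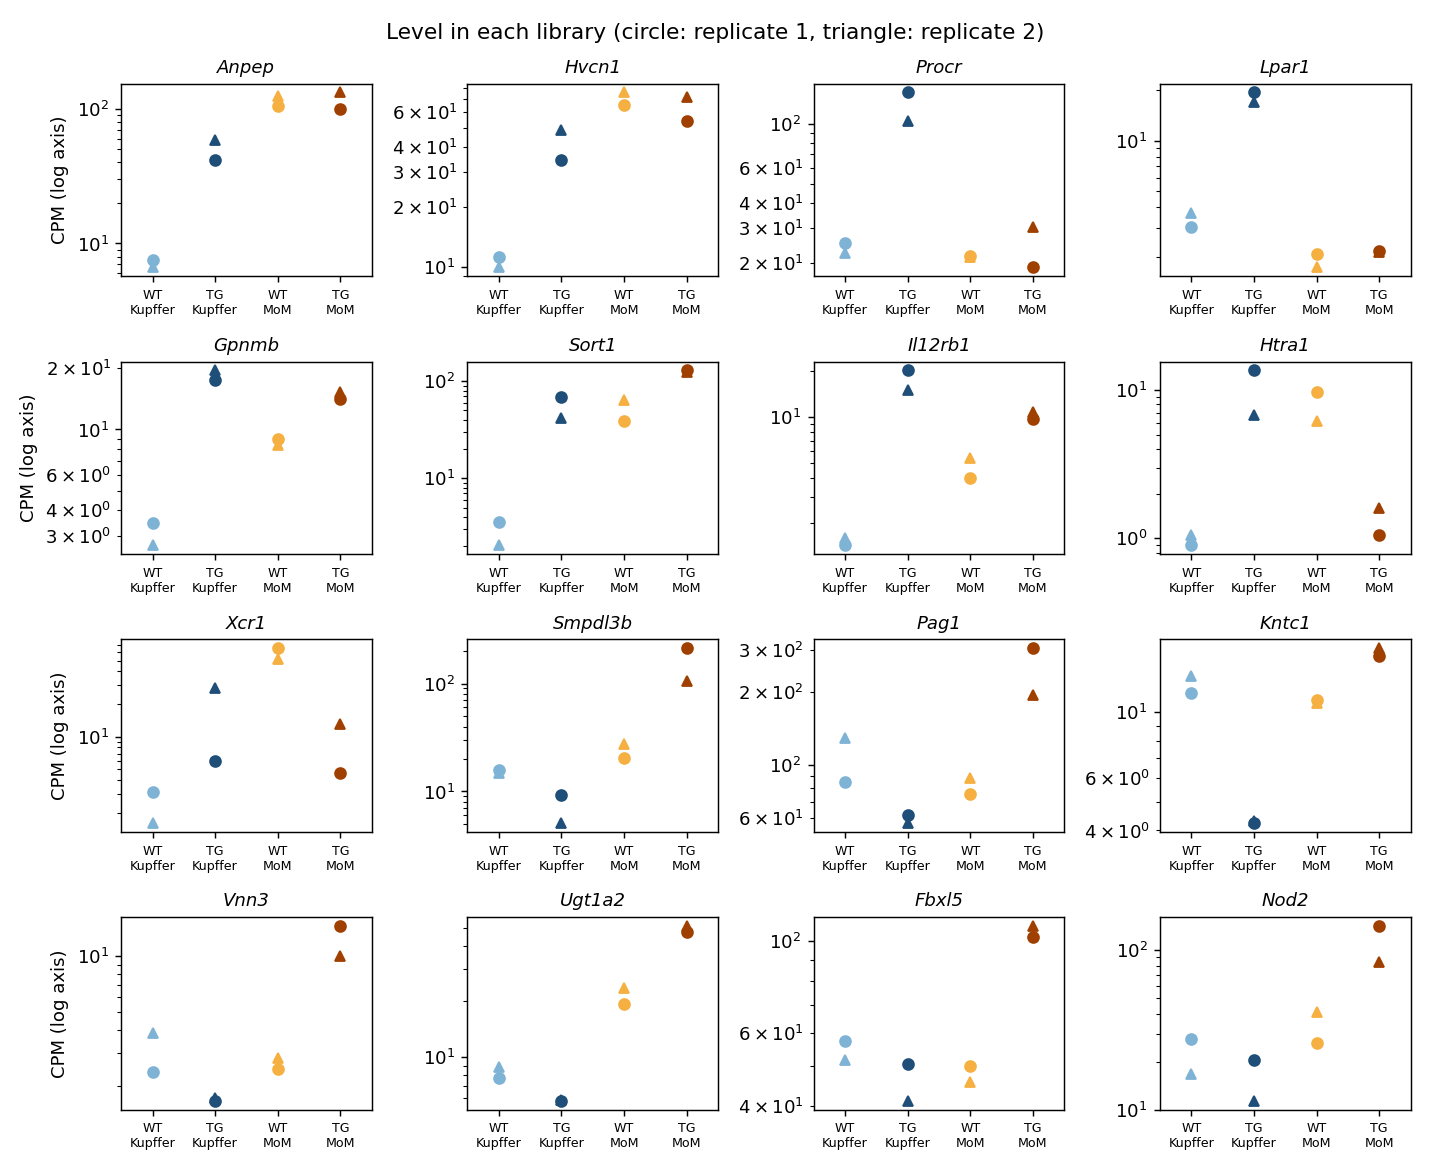
CPM of 16 genes (log axes, each panel with its own scale) in the 8 libraries, by group; circles are replicate 1 and triangles replicate 2. Anpep, Hvcn1, Procr and Lpar1 differ by genotype in Kupffer cells and overlap or nearly so in MoM, Htra1 and Xcr1 run in opposite directions, and Fbxl5 and Nod2 differ in MoM.

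By the rule for a difference, 141 genes had opposite directions in the 2 subsets, of which 14 reached 20 CPM in the highest group. Of the genes higher in TG Kupffer cells, 12.3% were lower in TG MoM, beside 11% of all genes. That count is therefore close to the share over all genes. Htra1 (chr7:130936111-130985660), a secreted serine protease known to cleave matrix proteins, had 13.6 and 6.78 CPM in TG against 0.898 and 1.05 in WT Kupffer cells, and 1.05 and 1.60 in TG against 9.70 and 6.21 in WT MoM. The order of genotypes was reversed between subsets, with effects of 3.39 ± 0.53 and -2.58 ± 0.51, an interaction of -5.97 ± 0.74 and -6.10 in the reduced set. Xcr1, the receptor of cross-presenting dendritic cells, had 5.93 and 28.1 CPM against 3.12 and 1.61 in Kupffer cells and 4.59 and 13.1 against 65.0 and 51.6 in MoM (interaction -5.57 ± 1.21, and -3.95 in the reduced set). Dendritic markers were above WT in TG Kupffer replicate 2 and at the WT level in replicate 1, and below WT in both TG MoM libraries (5.91 and 6.24 against 6.53 and 6.73).

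P2ry14, a receptor for UDP-glucose, had 23.1 and 30.5 CPM against 13.5 and 13.8 in Kupffer cells and 8.28 and 12.0 against 18.9 and 24.7 in MoM (interaction -2.07 ± 0.41, and -2.12 in the reduced set), with a Kupffer effect just short of the size set for a class.

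Several opposite genes moved with the endothelial signal, whose part in them was not tested. Tspan7 had 389 CPM in TG Kupffer replicate 2 and 14.7 in replicate 1, and 206 in WT MoM replicate 1 against 11.6 to 108 in the other MoM libraries. Its interaction of -6.06 ± 2.25 was -1.85 in the reduced set, and that of Efnb2, an ephrin of arterial endothelium, went from -4.57 ± 1.43 to -1.84. Nectin2, an adhesion molecule, had 43.4 and 66.0 CPM against 20.5 and 20.7 in Kupffer cells, and its interaction went from -2.44 ± 0.62 to -1.59. Genes lower in TG Kupffer cells and higher in TG MoM included, besides Smpdl3b, the myeloid receptor Cd300ld3 (2.62 ± 0.86, and 2.30 in the reduced set) and the aminopeptidase Lnpep (3.02 ± 1.05, and 1.78 in the reduced set). Both lost that class in the reduced set. Cd300ld3 had 247 and 103 CPM in TG against 462 and 438 in WT Kupffer cells, and 612 and 204 against 195 and 145 in MoM. Its relatives Cd300ld4 and Cd300ld5 carried identical counts and also had 2.62, so these genes may not be separate measurements. Lnpep had 149 and 49.9 CPM against 187 and 221 in Kupffer cells and 232 and 97.9 against 20.4 and 63.3 in MoM.

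The 141 genes higher in TG in both subsets (0.924% of all genes) also held 5 of 20 monocyte, 6 of 13 neutrophil and 4 of 13 NK and cytotoxic genes. Of 20 monocyte genes, 16 were positive in Kupffer cells and 20 in MoM (medians 1.30 and 1.33), with a median interaction of 0.63 (0.02 in the reduced set). The neutrophil genes had medians of 3.39 in Kupffer cells and 4.77 in MoM, with a median interaction of 0.41. Without TG MoM replicate 2 the neutrophil MoM median was 1.05 and the interaction -3.89. For the monocyte genes these were 0.67 and -0.21. In WT Kupffer cells the neutrophil list was near the floor, with a mean log2(CPM + 0.5) of 0.05 and 0.08. The NK and cytotoxic genes had medians of 3.39 in Kupffer cells and 1.19 in MoM, and 0.66 and 0.45 in the reduced set. Ccr2, the receptor that brings monocytes into tissue, had 10.1 and 13.1 CPM in TG against 6.46 and 3.88 in WT Kupffer cells, and 216 and 459.7 against 128 and 186 in MoM (effects of 1.16 and 1.11). S100a9, a calcium-binding protein of neutrophils and monocytes, had 9.41 and 6.49 CPM against 0.575 and 0.971 in Kupffer cells and 28.6 and 842 against 5.59 and 19.5 in MoM. Chil3, a chitinase-like protein, had 1003 CPM in TG MoM replicate 2 and 13.3 or less in the other libraries, and Mpo, a granule peroxidase, had 36.5 and 10.1 or less. The MoM values of S100a8, S100a9 and F13a1 rest on TG MoM replicate 2, the library with the neutrophil markers, and their interactions changed sign without it. Vcan, a proteoglycan of monocytes, had 211 CPM in that library and 8.77 or less elsewhere (interaction 6.45 ± 2.23, and 2.80 without it).

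Among the 85 genes lower in TG in both subsets, 1 of the 24 Kupffer identity genes was found, and 5 genes are described. Cd207, the lectin langerin, had 43.1 and 18.9 CPM in TG against 342 and 209 in WT Kupffer cells, and 2.33 and 0.903 against 82.7 and 9.94 in MoM. Ltc4s, the leukotriene synthase, had 2.76 and 8.92 CPM against 34.6 and 39.4 in Kupffer cells and 2.11 and 2.43 against 17.9 and 5.66 in MoM. Cd209f, a C-type lectin, had 0.983 and 0.221 CPM against 38.2 and 30.8 in Kupffer cells, and the lipid transporter Abcb4 had 8.43 and 4.13 against 35.2 and 28.6. Rtn2, a reticulon, had 4.16 and 9.44 CPM against 15.5 and 41.7 in Kupffer cells and 1.43 and 2.05 against 23.7 and 2.80 in MoM. In the reduced set the first 4 genes kept their class and Rtn2 lost it, its MoM effect going from -2.92 to -0.71. For all 5 the sign of the interaction changed with the library left out.

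The Kupffer identity list as a whole had a median interaction of -2.25 with 22 of 24 genes negative, but 0.90 with 6 of 24 negative in the reduced set. The Kupffer effect itself was small (median -0.34, and -0.11 in the reduced set), and the MoM effect went from -2.22 to 0.66. By the rule for a difference, 5 of the 24 stood lower in TG Kupffer cells and 1 higher, beside 2.46% and 6.52% of all genes. Cd163 had 1039 and 435 CPM in TG against 2175 and 2406 in WT Kupffer cells (effect -1.64, and -1.09 in the reduced set). Clec4f had 6558 and 2736 CPM against 11553 and 12314 (effect -1.36, and -0.82 in the reduced set). The 1 higher gene was Marco, a scavenger receptor, at 5492 and 3309 CPM against 687 and 743. In MoM, Marco had 84.2 and 52.7 CPM in TG against 345 and 8.33 in WT. Its interaction was -3.99 ± 1.91, and 0.03 in the reduced set. Vsig4, the complement receptor, had 712 CPM in WT MoM replicate 1 and 19.98 to 31.6 in the other MoM libraries, and its interaction went from -2.95 to 0.91. For other cell types, the median interaction was -5.43 for endothelial markers and 0.36 in the reduced set, and -2.91 and 1.57 for hepatocyte markers. For cholangiocyte markers it was -7.10 and -4.84, with WT MoM replicate 2 the highest library of that list in both sets.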

How the data were processed

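The authors deposited 1 file of raw counts per library, whole numbers per gene symbol without normalization. Alignment was to mm10 with STAR 2.5.2b, per the submitters' processing notes, and the sources used here name no counter, annotation or strand setting. Counts from 1 to 19 were even in 65.0% to 68.0% of cases, so counts may exceed independent fragments, and 69 genes in 27 groups carried identical counts. Without strand, reads of overlapping genes cannot be told apart. A deposited table of TG against WT was not used here.

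All 8 libraries entered 1 fit with 4 group means in edgeR 4.0.16 (R 4.3.3): filterByExpr, TMM, quasi-likelihood F-test, Benjamini-Hochberg adjustment over 15254 genes. The biological coefficient of variation was 0.507 on 4 residual and 2.37 prior degrees of freedom, and 1 count equals 0.0330 to 0.0382 CPM. Alternatives were median-of-ratios size factors, no low-count filter, the replicate number as a block, limma-trend (limma 3.58.1), DESeq2 1.42.0, a 1.5-fold size rule, each library left out, and the reduced set.

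The comparison and its 41 gene lists (712 entries, 3 not in the files) were chosen with earlier results of these data known, so list counts are descriptions and no list was tested. Genes were named by rule: the 10 smallest interaction p in each direction at 10 CPM or more, up to 5 genes per response class at 20 CPM or more, and up to 3 members per list (8 for interferon gamma, MHC class II and Kupffer identity) with the smallest interaction p, plus label checks. Not all of the 147 genes so picked are described. Gbp5, Tgtp2, Ciita, Ctss, Tlr5, Tgfb3, Tgfbi, Igf1, Oas2, Ccr2 and the further members that make up a printed class were named after their values were seen. A member of the interferon gamma list is not reported here by name. Promoters and gene positions are from RefSeq (GRCm38.p6) and GENCODE.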

Additional observations from a re-analysis of the deposited data

Results flagged for a closer look

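Genes whose TG libraries all lay above WT in a subset and all below WT in the other numbered 122 (higher in TG Kupffer cells, lower in TG MoM) and 19 (the other way round), each with at least 1 log2 unit in both subsets. The interaction, which tests the difference between subsets, did not pass edgeR's adjusted threshold for any of them. The 122 were 12.3% of the genes higher in TG Kupffer cells, beside 11% of all genes lower in TG MoM. The 19 were 5.07% of the genes lower in TG Kupffer cells, beside 3.43% of all genes higher in TG MoM. Among those named, Htra1 had an interaction of -5.97 and Smpdl3b of 3.83, and in the reduced set these were -6.10 and 3.21. Smpdl3b lost its class there, with a Kupffer effect of -0.68. Of the 122 and 19 genes, 62 and 10 kept their class in the reduced set. Xcr1 had -5.57 and Nectin2 -2.44. Efnb2 (-4.57) and Tspan7 (-6.06) were highest in TG Kupffer replicate 2, where endothelial markers were highest too; the part of endothelial RNA was not tested. Cd300ld3 had 2.62 and Lnpep 3.02, and both lost their class in the reduced set.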

How the results depend on the processing

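With 2 libraries a group, precision is limited by their spread and not by depth. The edgeR fit called 0 genes under median-of-ratios size factors, without the low-count filter, with limma-trend, with the replicate block and in the reduced set. DESeq2 called 51 interaction, 236 Kupffer and 133 MoM genes. Leaving out each library gave 0 to 83 interaction genes, 0 to 257 Kupffer genes and 0 in MoM; the 83 and 257 came without TG Kupffer replicate 1, and the cause was not tested. Same-numbered libraries correlated in their deviations from group means at 0.62 between TG Kupffer cells and TG MoM, at 0.15 to 0.30 in 3 further pairs of groups, and at 0.08 and -0.14 in the others. As not every pair was above 0.1 and no label ties a number to an animal, the numbers were not taken as pairs, and the replicate block gave 0 calls. With 1 library left out, where fewer libraries make overlap rarer, class counts were 136 to 360 (higher in both), 94 to 617 (lower in both), 116 to 1034 (higher in Kupffer cells, lower in MoM), 32 to 92 (the reverse), 335 to 1599 (Kupffer only) and 504 to 1391 (MoM only), and each of the 8 libraries moved at least 1 of them by over 1.5 times. At 1.5-fold in place of 2-fold they were 253, 194, 196, 86, 1025 and 1413. The reduced set gave 686 lower in both, 209 and 45 opposite and 988 MoM only, and no low-count filter gave 36 of the last opposite class. Of 1470 values for 105 named genes, 63 changed sign, and 80 genes had no such value. In the reduced set these were Abcb4 (0.56), Alb (2.30), Cd274 (-0.61), Clec4f (2.17), F13a1 (-0.92), Gbp6 (0.25), Igtp (0.14), Kdr (0.39, from -7.20 to -0.73 with 1 library left out), Marco (0.03), Rtn2 (2.01) and Vsig4 (0.91). Limma-trend gave 0.0424 for Abcb4, -0.0497 for F13a1 and -0.062 for S100a8, and the replicate block gave 0.012 for Abcb4. With each library left out, the interaction ranged from -0.94 to 1.05 for Abcb4, -6.58 to 2.37 for Alb, -0.19 to 1.00 for Batf2, -0.70 to 0.40 for Ccr2, -2.52 to 0.54 for Cd207, -3.57 to 3.86 for Cd209f, -0.32 to 0.46 for Cd274, -1.16 to 0.44 for Ciita, -4.03 to 2.73 for Clec4f and -2.65 to 1.92 for F13a1. It ranged from -0.24 to 0.87 for Gbp2, -0.25 to 0.45 for Gbp5, -0.54 to 0.15 for Gbp6, -0.39 to 0.69 for Gbp7, -0.60 to 0.14 for Igtp, -0.31 to 1.36 for Ltc4s (2.35 in the reduced set), -4.95 to 0.42 for Marco, -6.82 to 1.23 for Ngp, -0.35 to 2.13 for Mpo, -1.71 to 1.40 for Rtn2, -1.97 to 2.53 for S100a8, -2.16 to 2.93 for S100a9, -2.81 to 0.21 for Vegfa and -3.91 to 1.25 for Vsig4.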
